A study of Mus musculus with 6 samples.

Results

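The clustered replication-dependent histone genes were taken as the 70 of 46078 rows of the deposited count table whose symbol starts with Hist1h, Hist2h, Hist3h or Hist4h. They comprised 6 H1, 20 H2a, 19 H2b, 12 H3 and 13 H4 genes, and the choice used symbols alone and no measured value. On GRCm38 (GENCODE M21), 56 lay on chromosome 13, 10 on chromosome 3, 3 on chromosome 11 and 1 on chromosome 6. Their counts were described in RNA-seq libraries of cones that carry the fluorescent calcium sensor TN-XL. The cones were sorted from rd1TN-XL mouse retinal explants, which kept their pigment epithelium. In this line a defect of the rod phosphodiesterase gene Pde6b leads to the loss of rods, and a human red opsin promoter drives the sensor in cones. All explants entered culture at PN19 and stayed there for 7 days, 3 replicates with 10 nM trichostatin A (TSA, an inhibitor of histone deacetylases) and 3 with DMSO, its solvent, as the control. Each library came from 2000 to 5000 frozen sorted cells, whose explants had been pooled from different animals. The sample labels disagree on the harvest day. The source name gives PN26 throughout, as do 7 days of culture from PN19, whereas the time point label gives PN26, PN27 and PN28 in the DMSO replicates and PN29, PN30 and PN31 in the TSA replicates, and if the latter holds, age and treatment cannot be told apart.

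Replication-dependent histones supply the proteins that package newly made DNA, and their short intronless genes sit in clusters that are transcribed mainly in S phase. The mRNAs usually end in a conserved stem-loop that is bound by the stem-loop binding protein SLBP, in place of a poly(A) tail. Some of these genes also give polyadenylated mRNAs in cells that have left the cell cycle, and replacement histone genes such as H3f3b supply histones outside S phase. The libraries were made with SMART-Seq v4, whose cDNA synthesis is primed from poly(A) tails.

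The stem-loop is shown for 8 genes whose counts or contrasts are described below. The 6 bases of each stem arm are in capitals, the loop and 5 flanking bases on each side are in lower case, and the sequences are the sense strand as DNA from the GENCODE M21 transcripts of GRCm38.
Hist1h1c: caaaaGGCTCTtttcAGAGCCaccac
Hist1h1e: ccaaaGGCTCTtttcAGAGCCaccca
Hist3h2a: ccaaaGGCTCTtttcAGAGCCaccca
Hist1h2ac: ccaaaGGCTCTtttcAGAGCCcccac
Hist2h3c2: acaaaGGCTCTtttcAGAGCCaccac
Hist1h4d: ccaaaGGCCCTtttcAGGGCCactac
Hist1h4h: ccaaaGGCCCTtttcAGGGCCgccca
Hist2h4: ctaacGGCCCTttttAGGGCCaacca
These lay at chr13:23739507-23739532 on the + strand (Hist1h1c), chr13:23621777-23621802 on the - strand (Hist1h1e), chr11:58955167-58955192 on the + strand (Hist3h2a) and chr13:23683472-23683497 on the - strand (Hist1h2ac). The others lay at chr3:96238480-96238505 on the - strand (Hist2h3c2), chr13:23581945-23581970 on the + strand (Hist1h4d), chr13:23531453-23531478 on the + strand (Hist1h4h) and chr3:96262934-96262959 on the - strand (Hist2h4). Of the 70 genes, 46 had such a stem-loop in an annotated transcript, in 8 forms of its 16 central bases. The commonest form, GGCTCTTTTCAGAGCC, was found in 26 genes of the H1, H2a, H2b and H3 classes. The form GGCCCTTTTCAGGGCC was found in 7 genes, each of them an H4 gene. Only 4 other protein-coding genes held a stem-loop of these forms, so that 0.228% of 21901 protein-coding genes had one.

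Library totals ranged from 9135389 to 13650676 counts, lowest in DMSO replicate 2, and 6690 to 10795 genes were above 1 CPM (count scaled to the library total), most in TSA replicate 1. Markers of cones made up 2.88 to 5.24% of all counts, with 8 of 8 markers detected in every library, and rod markers 0.908 to 1.78%. TSA replicate 1 stood apart, with 1.40% of its counts in 8 Müller glia markers against 0.0727 to 0.126% in the other libraries. It also held 0.194% in 9 microglia markers against at most 0.0194%. Its share of 8 bipolar cell markers was 0.282%, against 0.0684 to 0.172% in the other libraries. In bulk libraries, fewer cells of a type and less RNA per cell cannot be told apart. The labels do not say whether replicates were cultured on separate days or came from separate litters, and p-values measure the spread between these libraries alone, which may be technical.

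Most counts of the histone genes fell on a handful of them. At least 10 counts in at least 1 library were found for 34 of 70 genes (32.0% of all genes in the table reached this), at least 10 in all 6 libraries for 9, and 21 genes were at 0 in every library. The remaining 15 genes peaked between 1 and 9 counts. The number of genes with at least 10 counts was 22, 15 and 21 in the DMSO replicates, in their order, and 26, 19 and 24 in the TSA replicates, so the groups overlapped, with the lowest number in the library of lowest total. By class, 3 of 6 H1, 9 of 20 H2a, 11 of 19 H2b, 1 of 12 H3 and 10 of 13 H4 genes reached 10 counts in a library. Hist1h2bc alone held 47.9 to 58.4% of the counts of the 70 genes in each library. Together with Hist1h1c, Hist1h4d and Hist3h2a it held 75.8 to 90.4%. These 4 genes belong to the classes H2b, H1, H4 and H2a.

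**Figure D1:**
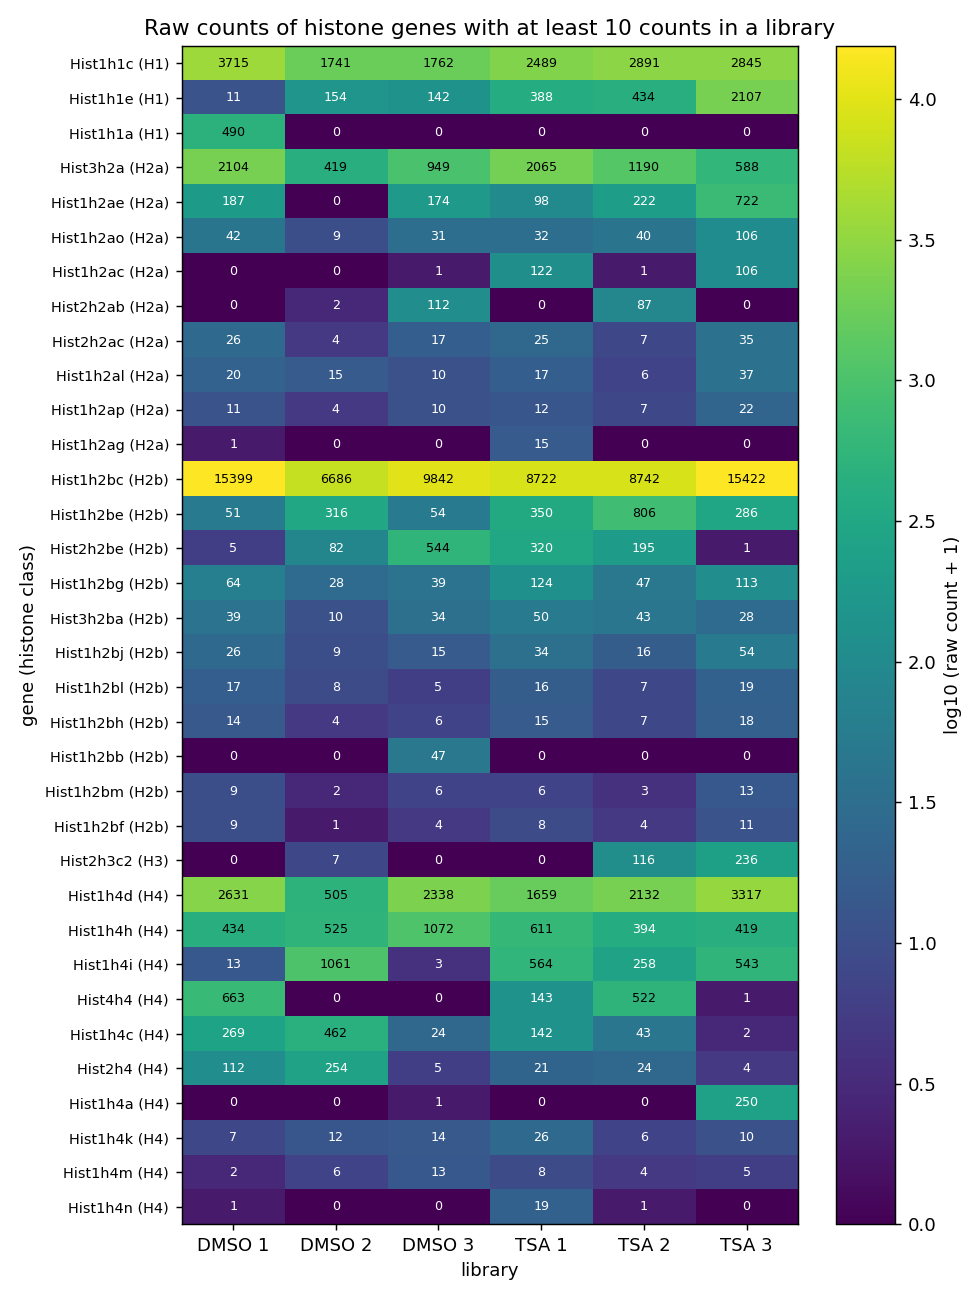
Raw counts (numbers in the cells; colour, log10 of the count plus 1) of the 34 histone genes with at least 10 counts in a library, in rows grouped by class, for the 3 DMSO and 3 TSA libraries in columns. Hist1h2bc is the brightest row, between 6686 and 15422 counts, and the H3 class has a single row.

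The annotated 3' end of the longest transcript was set beside the counts. In 23 genes this transcript ran at least 100 bases past the stem-loop, and 16 of these genes reached 10 counts in a library. Another 22 genes had a transcript ending within 100 bases after the stem-loop, and 11 of them reached 10 counts. In 17 genes the annotation stopped within 100 bases of the stop codon, with no stem-loop, and 4 reached 10 counts. A further 5 genes had a longer transcript without a stem-loop, of which 2 reached 10 counts, and 3 were pseudogenes, of which 1 did. The genes whose transcript runs past the stem-loop had a median highest count of 236, against 10 for those ending near it and 0 for those ending at the stop codon. They held 40.5% of all counts of the 70 genes, while the 22 genes that end near the stem-loop held 3.56%. The 5 longer transcripts without a stem-loop held 55.1%, nearly all of it Hist1h2bc.

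The number of runs of 75 bases, the read length, that occur in no other annotated transcript moves with these groups, and its part in the difference was not tested. Its median was 838 in the genes that run past the stem-loop, 175 in those that end near it and 76 in those that end at the stop codon. Of the 70 genes, 65 shared at least 1 such run with another gene and 5 had no run of their own. Those 5, Hist2h2aa1, Hist2h2aa2, Hist2h2bb, Hist2h3b and Hist2h3c1, were at 0 in every library. How reads that match several genes were counted is not given in the sources used here, so counts of genes with few unique runs are uncertain. The genes over 100 counts in a library were 1 of the 17 genes with fewer than 100 unique runs but at least 1, 6 of the 28 with 100 or more but under 500, and 13 of the 20 with 500 or more. In the last of these groups, 14 of 20 reached 10 counts. Hist1h1d, an H1 gene with 7243 unique runs and a transcript 4884 bases past the stem-loop, had at most 8 counts in a library.

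**Figure D2:**
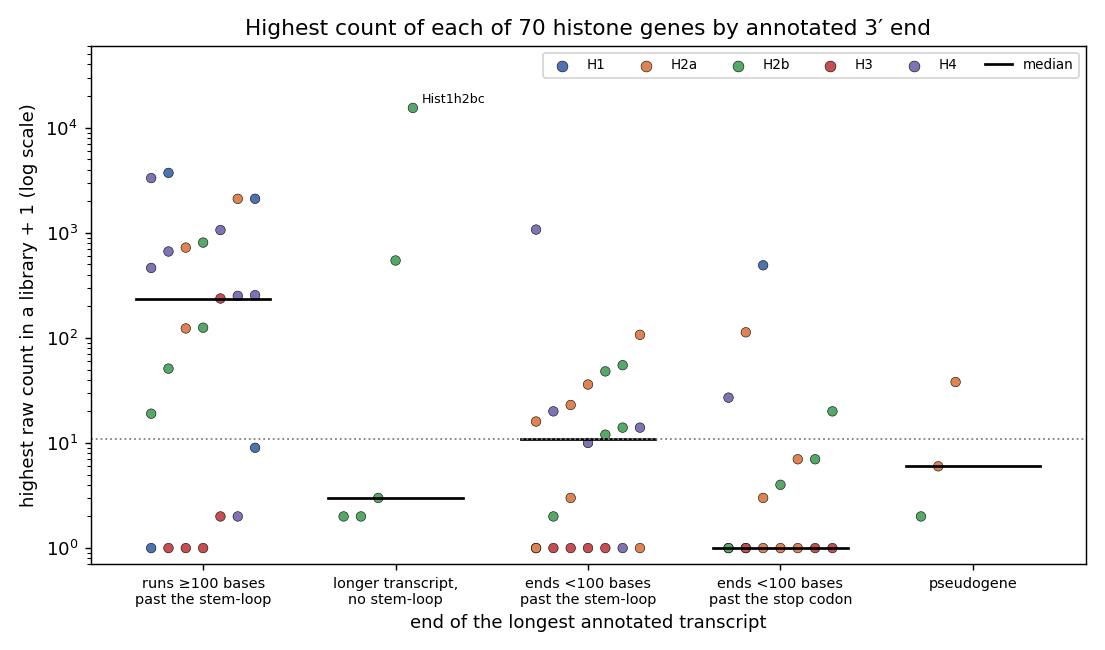
Highest raw count in a library plus 1 (log axis) of each of the 70 histone genes, grouped by the end of its longest annotated transcript and coloured by class; the bars are medians of the groups and the dotted line is 10 counts. The genes that run past the stem-loop have a median highest count of 236, while Hist1h2bc stands alone at the top among 5 longer transcripts that have no stem-loop.

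Of the H2b genes, which encode 1 of the 4 core histones of the nucleosome, Hist1h2bc was the most highly counted. In the order of the replicates, here and below, it had 15399, 6686 and 9842 counts with DMSO and 8722, 8742 and 15422 with TSA. The groups overlapped over their whole range, and the gene varied by 2.37-fold in CPM between its highest and lowest library. Hist1h2bc (ENSMUSG00000018102, chromosome 13, 23684199 to 23692908, + strand) has an annotated spliced transcript of 2 exons and 1156 bases. That transcript carries 742 bases after the stop codon and no stem-loop. Per kilobase of the longest transcript, its level was 794 ± 325 CPM (SD over 6 libraries), compared with 155 ± 78.8 for Hist1h4d, 138 ± 45.5 for Hist1h1c, 103 ± 49.9 for Hist1h4h and 46.3 ± 26.6 for Hist3h2a. The levels of Hist1h4d, Hist1h1c and Hist1h4h differed by less than the SD of the first of them, while Hist1h2bc lay more than its own SD above them.

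The other H2b genes were far lower. Hist1h2be, which has a second, distant exon and a transcript 1861 bases past the stem-loop, had 51, 316 and 54 counts with DMSO and 350, 806 and 286 with TSA. Hist2h2be, a gene of the chromosome 3 cluster with a transcript of 2620 bases that holds no stem-loop, had 5, 82 and 544 with DMSO and 320, 195 and 1 with TSA. Both changed by more between replicates of a group than between the groups. Hist1h2bg had 64, 28 and 39 counts with DMSO and 124, 47 and 113 with TSA. Hist3h2ba, on chromosome 11, had 39, 10 and 34 with DMSO and 50, 43 and 28 with TSA. Hist1h2bj had 26, 9 and 15 with DMSO and 34, 16 and 54 with TSA. These 3 genes were read in all or nearly all libraries at a low level, and their groups overlapped. Hist1h2bl had 17, 8 and 5 counts with DMSO and 16, 7 and 19 with TSA, and Hist1h2bh had 14, 4 and 6 with DMSO and 15, 7 and 18 with TSA. Of 18 H2b genes other than Hist1h2bc, 14 shared 57 to 231 runs of 75 bases with it, and 13 of those 14 stayed below 1.5% of the Hist1h2bc count in every library. Hist1h2bg, the gene that shared most, was at 0.396 to 1.42% of it and Hist1h2bl at 0.0508 to 0.183%, so counts of this size cannot be told apart from reads of Hist1h2bc without the reads themselves. The testis gene Hist1h2ba had at most 6 counts in a library.

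Histone H2a and H2b genes often lie head to head over a shared promoter, and 14 such pairs had starts 172 to 305 bases apart. Both partners reached 10 counts in a library in 4 pairs, a single partner in 6 and neither in 4. The most uneven pair by counts with both partners detected was Hist1h2ac and Hist1h2bc, whose sums over the 6 libraries were 230 and 64813. The 250 bases between their annotated starts are printed because both genes start from them in opposite directions (RefSeq promoter of H2ac6, the current name of Hist1h2ac, GRCm38.p6, chr13:23683949-23684198, - strand, read towards Hist1h2ac).
Hist1h2ac and Hist1h2bc: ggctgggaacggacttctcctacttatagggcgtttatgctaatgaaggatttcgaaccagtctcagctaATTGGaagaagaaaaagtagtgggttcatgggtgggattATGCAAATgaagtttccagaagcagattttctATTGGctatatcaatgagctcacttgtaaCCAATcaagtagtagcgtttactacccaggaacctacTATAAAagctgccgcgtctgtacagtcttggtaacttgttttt
Capitals mark matches, on either strand, to the octamer ATTTGCAT, the CCAAT box and the TATAAA box, none of which overlap here. The octamer match reads towards Hist1h2bc, and the TATAAA match towards Hist1h2ac. Among 63 RefSeq promoter windows of 300 bases that matched 62 of the 70 genes, the octamer was in 14, the CCAAT box in 54 and TATAAA in 35. Where both genes of a pair have a window, the windows share many bases and a match there counts for both, so these windows are not independent. Over all 32851 promoter windows of the same length the shares were 1.74% for the octamer, 37.4% for CCAAT and 13.6% for TATAAA. The octamer was in 7 and the CCAAT box in 17 of 17 H2b windows.

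In other pairs the H2a partner held more counts. Hist3h2a had 7315 counts over the 6 libraries and its partner, the pseudogene Hist3h2bb-ps, had 3. Hist1h2ae had 1403 and Hist1h2bg 415. The order was again the other way in the chromosome 3 pair, with 114 counts for Hist2h2ac and 1147 for Hist2h2be. In these pairs no partner was at a fixed ratio to the other across libraries. Hist2h2be fell to 1 count in TSA replicate 3, where Hist2h2ac had its highest count of 35, and Hist1h2ae was at 0 in DMSO replicate 2, where Hist1h2bg had 28.

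**Figure D3:**
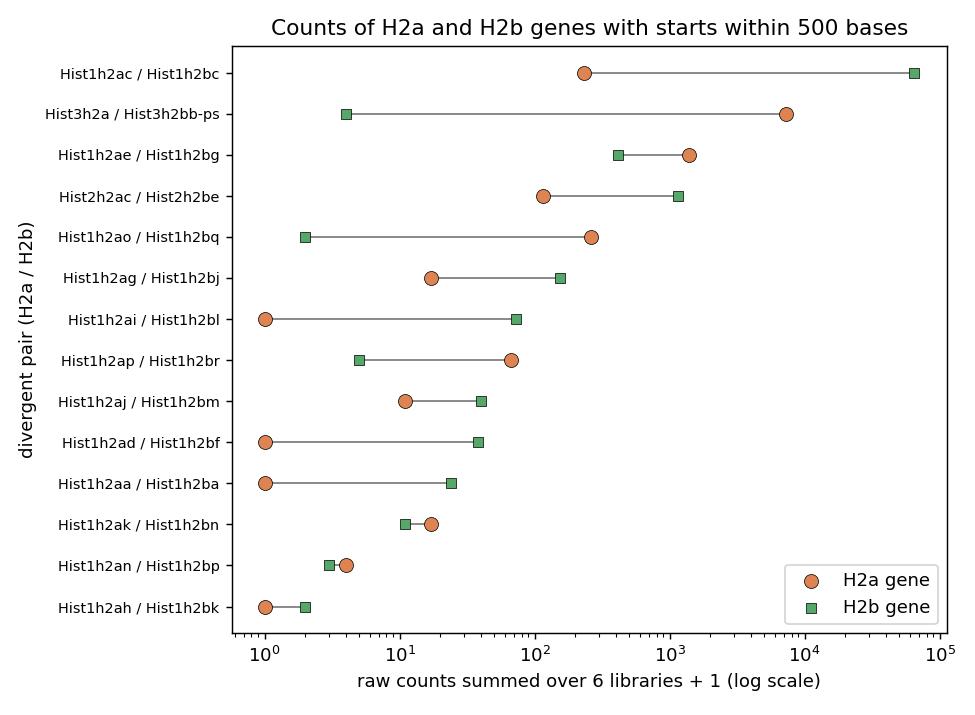
Raw counts summed over the 6 libraries plus 1 (log axis) of the H2a gene (circles) and the H2b gene (squares) of 14 pairs with starts 172 to 305 bases apart, joined by lines. The longest lines belong to Hist3h2a with Hist3h2bb-ps, at 7315 against 3, and to Hist1h2ac with Hist1h2bc, at 230 against 64813.

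The H1 genes encode linker histones, which bind the DNA between nucleosomes. Hist1h1c, a somatic linker histone (ENSMUSG00000036181, chromosome 13, 23738808 to 23740367, + strand), had 3715, 1741 and 1762 counts with DMSO and 2489, 2891 and 2845 with TSA. It was the steadiest histone gene among the 9 with at least 10 counts in every library, with 2.17-fold between its highest and lowest CPM, and its annotated transcript ran 840 bases past the stem-loop. Hist1h1e, another somatic linker histone (ENSMUSG00000051627, chromosome 13, 23620629 to 23622558, - strand), had 11, 154 and 142 counts with DMSO and 388, 434 and 2107 with TSA. Every TSA library lay above every DMSO library, although the range within each group was wide. The gene overlaps Hist1h2be and Gm11398 on the same strand, and reads in the overlap cannot be assigned to a single gene. Hist1h1a was read in 1 library alone, with 490 counts in DMSO replicate 1 and 0 in the other 5. Hist1h1b and the testis gene Hist1h1t were at 0 throughout, although 669 and 838 of their runs of 75 bases were unique.

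The H4 genes, which encode the same small core histone from many copies, were the class with the largest share of detected genes. Hist1h4d (ENSMUSG00000061482, chromosome 13, 23581598 to 23582735, + strand) had 2631, 505 and 2338 counts with DMSO and 1659, 2132 and 3317 with TSA. Its transcript extended 770 bases past the stem-loop. Hist1h4h (ENSMUSG00000060981, chromosome 13, 23531050 to 23531519, + strand) had 434, 525 and 1072 counts with DMSO and 611, 394 and 419 with TSA. Unlike that of Hist1h4d, its annotated transcript stopped 46 bases after the stem-loop. The groups of both genes overlapped.

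The remaining H4 genes came and went between libraries. Hist1h4i had 13, 1061 and 3 counts with DMSO and 564, 258 and 543 with TSA. Hist4h4, the single gene on chromosome 6, had 663, 0 and 0 with DMSO and 143, 522 and 1 with TSA. Hist1h4c had 269, 462 and 24 with DMSO and 142, 43 and 2 with TSA. In each of these genes a DMSO library held the highest count and another was at most at 24, so the spread within DMSO exceeded any shift between the groups. Hist2h4 had 112, 254 and 5 counts with DMSO and 21, 24 and 4 with TSA, and Hist1h4k, whose 312 bases of annotation hold 76 unique runs, had 7, 12 and 14 with DMSO and 26, 6 and 10 with TSA. Hist1h4a was present in a single library, at 250 counts in TSA replicate 3 against at most 1 elsewhere.

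Among the H2a genes, core histones that pair with H2b, Hist3h2a led (ENSMUSG00000078851, chromosome 11, 58954685 to 58956830, + strand). It had 2104, 419 and 949 counts with DMSO and 2065, 1190 and 588 with TSA, and its groups overlapped. Its transcript runs 1643 bases past the stem-loop and overlaps Trim17 on the same strand, so part of its count may belong to that gene. Hist1h2ae had 187, 0 and 174 counts with DMSO and 98, 222 and 722 with TSA. Hist1h2ac (ENSMUSG00000069270, chromosome 13, 23681467 to 23683948, - strand) had 0, 0 and 1 with DMSO and 122, 1 and 106 with TSA. The latter was thus present in 2 TSA libraries and nearly absent from the third, where it was at the level of the DMSO libraries. Hist1h2ao had 42, 9 and 31 counts with DMSO and 32, 40 and 106 with TSA, Hist2h2ac had 26, 4 and 17 with DMSO and 25, 7 and 35 with TSA. Hist2h2ab had 0, 2 and 112 with DMSO and 0, 87 and 0 with TSA. These genes overlapped between the groups. The pseudogene Hist1h2al had 20, 15 and 10 counts with DMSO and 17, 6 and 37 with TSA, and Hist1h2ap, with 30 unique runs, had 11, 4 and 10 with DMSO and 12, 7 and 22 with TSA. Over all classes, the other 6 genes that reached 10 counts in a single library peaked at 11 to 47 counts.

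The H3 genes, which encode the core histone whose tail carries many regulatory marks, were nearly unread. Of 12 genes, 10 were at 0 in all 6 libraries and Hist1h3d had 1 count in 1 library. Hist2h3c2 (ENSMUSG00000081058, chromosome 3, 96238108 to 96239127, - strand) had 0, 7 and 0 counts with DMSO and 0, 116 and 236 with TSA. It too was missing from a TSA library, replicate 1. Of the 8 H3 genes with at least 200 unique runs of 75 bases, 6 were at 0 throughout. In DMSO replicate 1, the deepest library, 0 of 13650676 counts fell on an H3 gene of the clusters, which allows a share of up to 2.20e-05% (3 counts). This floor and the intervals below cover counting error only, as amplified copies are not told apart.

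Treatment with TSA was compared with DMSO across all genes by the quasi-likelihood test of edgeR. Of the 70 histone genes, 24 passed the filter on low counts (2 or more libraries of a group above 1 CPM), and none was called at an adjusted p under 0.05 (0.00% of 9621 genes tested were called). At an unadjusted p of 0.05 or less there was 1 of 24, Hist1h2ac, against 10.3% of all genes tested. It was higher in value with TSA, as were 8.02% of all genes at that p, and none of the 24 was lower, against 2.30%. With DESeq2 1 of the 24 was called, Hist1h2ac, against 8.90% of all genes, and with limma-trend 0. The share of histone genes past each threshold was thus at or below the share among all genes. Of the 24, 16 had higher and 8 lower fitted values in TSA, with a median log2 fold change of 0.26 against 0.02 over all genes tested, and 19 of the 24 fold changes were smaller than their own SE. This median moved with the library left out, from 0.03 without TSA replicate 3 (11 higher and 9 lower) to 0.72 without DMSO replicate 1, and without DMSO replicate 2 it was 0.12 against 0.17 over all genes (12 higher and 11 lower). No direction is therefore given for the set. The CPM of the groups did not overlap in 1 of 24, Hist1h1e, against 10.0% of all genes tested. Hist1h1e was higher with TSA, as were 6.35% of all genes, and no histone gene was lower without overlap, against 3.68%.

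Hist1h2ac had the smallest p, with a log2 fold change of 7.21 ± 2.19 (SE) and an adjusted p = 0.405 in edgeR (unadjusted 0.0119). Since the DMSO group held 1 count, the ratio of pooled counts was 194 with an exact 95% interval of 34.4 to 7681 for counting error. The gene passed the filter through the TSA group alone, and was left out by it without TSA replicate 1 or without TSA replicate 3. TSA replicate 1, which held 122 of the 229 TSA counts, is the library with high glial markers, and the part of those cells in the result was not tested. TSA replicate 3 held 106, with Müller glia markers at 0.0727% of its counts. Microglia markers held 0.00717% of that library, against 7.33e-05 to 0.0194% in the DMSO libraries. In TSA replicate 3 they were nearly all C1qb, which had 0 counts in every DMSO library and 6464, 1393 and 911 with TSA.

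Hist1h1e followed with a log2 fold change of 3.14 ± 1.59 and adjusted p = 0.641 in edgeR, and means of 9.23 ± 7.17 CPM with DMSO and 82.2 ± 91.3 with TSA (SD, n = 3). Without TSA replicate 3 its log2 fold change was 1.64. Hist2h3c2 had 5.44 ± 2.81 (log2, SE) and adjusted p = 0.664, and without DMSO replicate 2, which held its 7 control counts, the fitted value was 9.90. Like Hist1h2ac, Hist2h3c2 passed the filter on low counts through the TSA group alone, so the direction of both follows in part from the filter. Hist2h4 and Hist1h4c, both H4 genes, had the smallest p among those lower in value with TSA. The log2 fold change of Hist2h4 was -3.23 ± 1.79 with adjusted p = 0.745 in edgeR, and that of Hist1h4c was -2.39 ± 2.00 with adjusted p = 1.00. Without DMSO replicate 2 these were -2.15 and -1.61, and without TSA replicate 1 that of Hist1h4c was -3.68.

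The leading genes showed no difference beyond the spread between replicates. Hist1h2bc had 961 ± 401 CPM with DMSO and 874 ± 433 with TSA, a log2 fold change of -0.14 ± 0.49 with adjusted p = 1.00 in edgeR. Hist1h1c had 218 ± 104 and 213 ± 42.4 CPM and a log2 fold change of -0.03 ± 0.60. Hist1h4d had 164 ± 103 and 189 ± 94.8 CPM and a log2 fold change of 0.21 ± 0.81. For Hist3h2a the fold change was -0.14 ± 0.94 and for Hist1h4h -0.75 ± 1.10, both on the log2 scale, and the latter ranged from -1.01 without DMSO replicate 1 to -0.40 without DMSO replicate 3. The sign of the first 4 turned with the library left out, and that of Hist1h1c and Hist3h2a also with the scaling, so no direction is given for them.

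**Figure D4:**
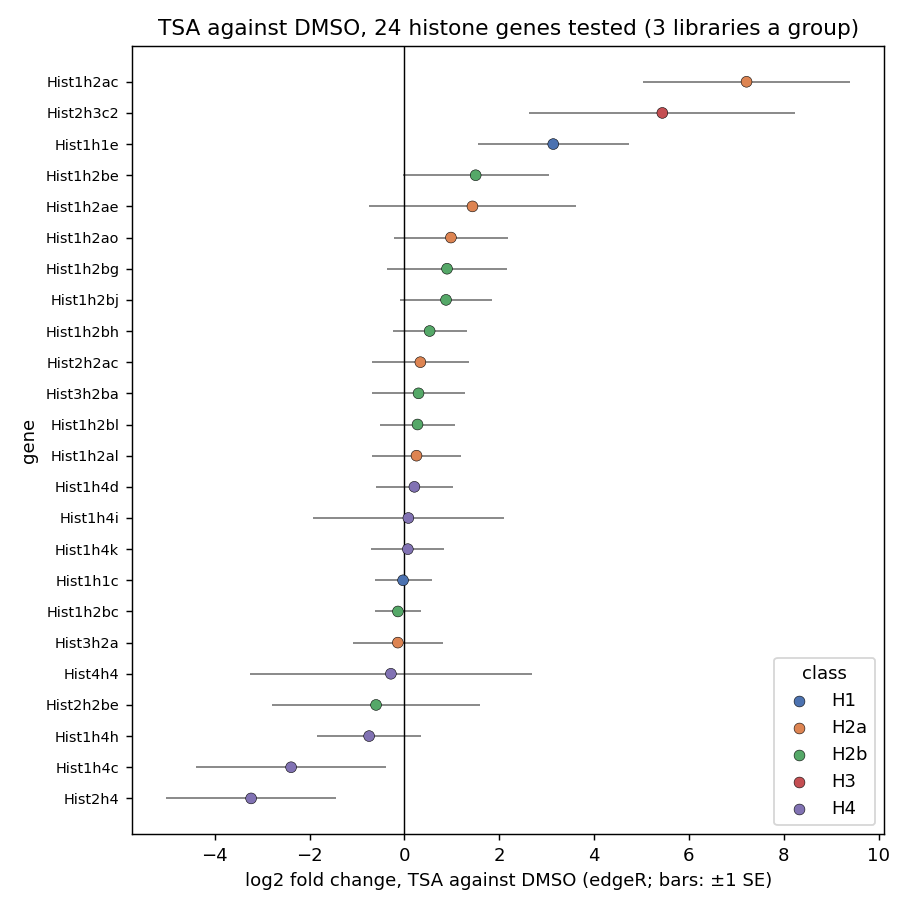
Log2 fold change of TSA against DMSO from edgeR (points, coloured by class; bars, 1 SE either side; 3 libraries a group) for the 24 histone genes tested, sorted by value. The bars of 19 genes reach across 0, and Hist1h2ac lies highest at 7.21.

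Summed over the genes, the shares of all counts overlapped between the groups. The 70 genes held 0.193% (95% Wilson interval 0.191 to 0.196), 0.135% (0.133 to 0.137) and 0.141% (0.139 to 0.143) of the counts in the DMSO libraries. They held 0.143% (0.141 to 0.145), 0.151% (0.149 to 0.153) and 0.215% (0.212 to 0.217) in the TSA libraries. The means were 0.156 ± 0.0321% with DMSO and 0.170 ± 0.0393% with TSA (SD, n = 3), so the difference of 0.0133 percentage points was smaller than either SD. Without Hist1h2bc the shares were 0.0805, 0.0618 and 0.0607% with DMSO and 0.0743, 0.0788 and 0.0937% with TSA, and these overlapped as well. Their means were 0.0677 ± 0.0111 and 0.0823 ± 0.0102%, a difference of 0.0146 percentage points that was larger than either SD. By class the means with DMSO and TSA were 0.0931 ± 0.0191 and 0.0945 ± 0.0270% for H2b and 0.0298 ± 0.00138 and 0.0297 ± 0.00547% for H4. They were 0.0224 ± 0.00782 and 0.0297 ± 0.00832% for H1 and 0.0111 ± 0.00629 and 0.0149 ± 0.00350% for H2a. For H3 they were 2.55e-05 ± 4.42e-05 and 0.000940 ± 0.000931%, from Hist2h3c2 in 2 TSA libraries nearly alone. The H4 share was the steadiest in the DMSO group, although its single genes were not.

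**Figure D5:**
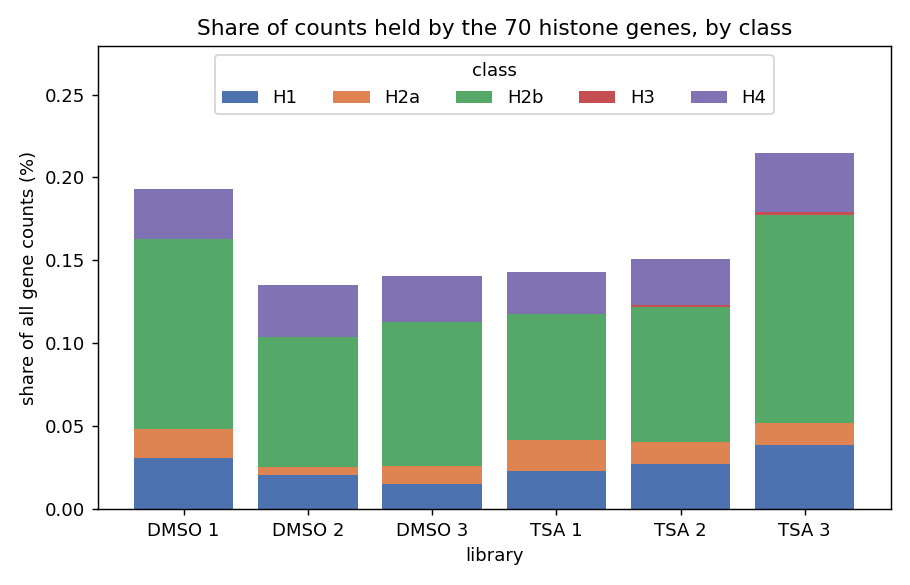
Share of all gene counts (percent, bars from 0) held by the 70 histone genes in each of the 3 DMSO and 3 TSA libraries, stacked by class. H2b makes up the largest segment in every bar, H3 is barely visible, and the totals run from 0.135% in DMSO replicate 2 to 0.215% in TSA replicate 3.

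Replacement histone genes, whose mRNAs are mostly polyadenylated, were set beside the clustered genes. Of 12 listed, 9 were tested and none was past an unadjusted p of 0.05 in edgeR. H3f3b, which encodes the replacement form of H3, had 32858, 19906 and 33990 counts with DMSO and 40008, 40946 and 49912 with TSA. This single gene exceeded the sum of the 70 clustered genes in every library, the sum being 0.446 to 0.803 times its count, and its groups did not overlap in raw counts or relative to the library totals, but did so relative to the TMM-adjusted totals used for CPM of single genes. In edgeR the log2 fold change of H3f3b was 0.39 ± 0.33 with adjusted p = 1.00, although with library totals alone its unadjusted p was under 0.05. H2afz, a replacement H2A, was at 1290 ± 297 CPM with DMSO and 1191 ± 431 with TSA. H1f0, the linker histone of differentiated cells, was at 69.95 ± 43.3 and 87.0 ± 15.3 CPM. The clustered genes made up 19.3 to 25.7% of the counts of both sets.

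Genes that act on histone mRNA and in replication were read from the same fit. Of 21 listed histone mRNA processing genes in the table, 17 were tested and none was past an unadjusted p of 0.05 in edgeR, with a median log2 fold change of -0.05. Slbp, the stem-loop binding protein, had 7, 120 and 2 counts with DMSO and 1334, 439 and 533 with TSA. Its groups did not overlap, as in 10.0% of all genes tested (6.35% with TSA higher). Its log2 fold change was 3.84 ± 1.96 with adjusted p = 0.646 in edgeR. Npat, a coactivator of histone gene transcription, had 1, 77 and 367 counts with DMSO and 374, 519 and 10 with TSA, which overlapped. Snrpg, a shared spliceosomal Sm protein of the processing list, was at 299 ± 89.1 and 186 ± 74.9 CPM. Of 25 histone chaperone genes, 22 were tested and none was past that p, Rbbp4 having the smallest, with 109, 7 and 0 counts with DMSO and 1345, 722 and 1742 with TSA. Both Slbp and Rbbp4 passed the filter on low counts through the TSA group alone, so their direction follows in part from the filter. With DESeq2 and with limma-trend, both were at an unadjusted p of 0.05 or less, as were 14.6% and 6.35% of all genes tested. In edgeR, Slbp was at that p without DMSO replicate 2 (9.58% of all genes). Rbbp4 was so in edgeR with library totals alone (10.4% of all genes), with no filter (9.35%), and without DMSO replicate 1 (7.98%) or DMSO replicate 3 (7.29%).

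Of 42 genes of S phase and replication, 25 reached 10 counts in a library, 12 were tested, 4 were past an unadjusted p of 0.05 in edgeR, all higher in value with TSA (8.02% of all genes tested were), and none was called at the adjusted p. Without TSA replicate 1, the library with high glial markers, or without DMSO replicate 2, Gmnn alone was left at that p, so that 4 became 1. Gmnn, Rfc3, Ccne2 and Lig1 passed the filter on low counts through the TSA group alone. Their direction and the median below thus follow in part from the filter. With no filter 10 of 42 genes were at that p, against 9.35% of all genes tested in that setting. Of the 10, Gmnn, Rfc3, Lig1, Mcm2, Orc1 and Rpa2 were higher with TSA. The others, Ccne1, Gins3, Cdc25a and Dnmt1, were higher with DMSO, so the direction was mixed. Outside Gmnn, most counts of each lay in a single library, for Rfc3 in TSA replicate 1 and for Lig1 in TSA replicate 2. The median log2 fold change of the 12 genes was 1.43, also with the genes at 0 in every DMSO library set to their lower bound. Gmnn, the replication licensing inhibitor geminin, had 0, 1 and 0 counts with DMSO and 977, 596 and 692 with TSA, a ratio of pooled counts of 1915 (exact 95% interval 343 to 75682) with adjusted p = 0.405 in edgeR. Its groups stayed apart in all 3 replicates of each. Rfc3, a subunit of the clamp loader, had 0 counts in all DMSO libraries and 1379, 501 and 0 with TSA (at least 530-fold higher, if the DMSO group is set to a floor of 3 counts in all). Ccne2, cyclin E2, had 3, 0 and 0 counts with DMSO and 261, 3 and 107 with TSA, so that it too was near the DMSO level in a TSA library. Lig1, the replicative DNA ligase, had 0 in all DMSO libraries and 31, 394 and 0 with TSA. Pcna, the sliding clamp, had 115 ± 32.8 CPM with DMSO and 165 ± 20.2 with TSA, with adjusted p = 1.00.

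Markers of dividing cells were at or near 0. Mki67 had at most 1 count, Top2a at most 3, and Cdk1 and Ube2c had 0 in every library. Of the 10 listed, 3 reached 10 counts in a library. Cenpf was the sole one tested, with 129, 220 and 98 counts with DMSO and 33, 20 and 7 with TSA, a log2 fold change of -3.20 and adjusted p = 0.562 in edgeR. Outside TSA replicate 2, where it had 424 counts, Ccnb2 had at most 1, and Birc5 had 142 in TSA replicate 1 and 0 elsewhere.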

How the data were processed

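The deposited table holds whole raw counts per gene. The authors trimmed the reads, aligned them with STAR 2.5.4a to GRCm38 and assigned them to genes with Subread 1.6.0 (edgeR 3.22.3 is also named in the submitters' processing notes). The handling of multi-mapped reads and of strand is not given in the sources used here. A second table, of the authors' own test values, was not used. cDNA was amplified by 17 PCR cycles without molecular identifiers.

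Genes above 1 CPM in at least 2 libraries of a group (9621) were tested with glmQLFTest of edgeR 4.0.16 in R 4.3.3 (TMM scaling, two-sided, Benjamini-Hochberg adjustment over all genes). CPM of single genes use TMM-adjusted totals. Alternatives used DESeq2 1.42.0, limma 3.58.1 (prior count 2), other scalings and filters, a replicate block and each library left out. All genes with at least 10 counts in 2 libraries are named, with full statistics for the 5 of highest sum and up to 3 of smallest p in each direction, and up to 3 genes of other lists. The members were taken by symbol alone and the lists from general knowledge, but both were set with earlier results of these data known. Transcript ends and sequences come from GENCODE M21, in which 2 genes matched by symbol and not by identifier, and promoters from RefSeq (GRCm38.p6).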

Additional observations from a re-analysis of the deposited data

How the results depend on the processing

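The absence of a histone gene at an adjusted p under 0.05 held in every edgeR and limma fit and for each library left out , whereas DESeq2 called 1 histone gene and 856 of 9621 genes, and 11 genes were called by edgeR with no filter. With each library left out, 0 of all genes were called. The number of histone genes whose unadjusted p was 0.05 or less was 1 of 24, against 10.3% of all genes tested. It became 0 of 23 with at least 10 counts in 3 libraries (3.62% of all genes) and 0 of 24 with limma-trend (6.35%). With DESeq2 it was 3 of 24 (14.6%), and with no filter 4 of 49 (9.35%). In the latter, Hist1h1a, Hist1h2bb and Hist1h4a joined, each above 1 count in a single library. The number ranged from 0 to 2 with each library left out. It was 0 without TSA replicate 3 (9.57% of all genes) and 2 without DMSO replicate 1 (7.98%) or 2 (9.58%). The genes at that p over the lists of S phase, histone mRNA processing, chaperones and replacement histones numbered 4, became 1 with at least 10 counts in 3 libraries and 11 with no filter, and ranged from 2 to 6 with a library left out. Of all genes tested, 10.3%, 3.62% and 9.35% were at that p in the first 3 of these settings, and 7.29 to 9.58% with a library left out. With the replicate number as a block, 0 histone genes were called and 1 was at that p, as without it. Correlations of same-numbered replicates were -0.01, 0.06 and 0.04, and not every library correlated best with its own number. Values this near 0 cannot tell whether same-numbered replicates shared a culture day or litter, and the main fit used no pairing. Of 134 log2 fold changes of 10 named genes, 118 kept their direction. With a library left out, that of Hist1h2bc ranged from -0.65 to 0.19, with 0.12 and 0.061 without TSA replicate 1 and TSA replicate 2. That of Hist1h1c became 0.12 with library totals alone, 0.050 with limma-trend, 0.060 with the replicate block and 0.079 with upper-quartile scaling, and ranged from -0.33 to 0.37 with a library left out. That of Hist1h4d ranged from -0.28 without TSA replicate 3 to 0.58 without DMSO replicate 1. That of Hist3h2a became 0.16 with library totals alone, 0.031 with limma-trend and 0.016 with the replicate block, and ranged from -0.56 without DMSO replicate 2 to 0.60 without DMSO replicate 1. The median of all genes was 0.15 with library totals alone and 0.13 with upper-quartile scaling against 0.02. Without its member of most counts, the share of all 70 genes was 0.0677% with DMSO and 0.0823% with TSA, that of H1 0.00218 and 0.00777%, of H2a 0.00181 and 0.00462%, of H2b 0.00436 and 0.00702%, of H4 0.0152 and 0.0108%, and of H3 with TSA 2.6e-06%. The H4 share with DMSO was 0.0314% over TMM-adjusted totals.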
